A study of Rattus norvegicus with 4 samples.

Results

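The genes described here are interferon beta (Ifnb1), the chains of its receptor (Ifnar1 and Ifnar2) and of the interferon gamma receptor (Ifngr1 and Ifngr2), the kinases bound to these receptors (Jak1, Jak2 and Tyk2) and a pair of inhibitors of those kinases (Socs1 and Socs3). They were taken by gene symbol from the array annotation, with the brightest probe set kept for each gene. Of the 10 genes, 8 were measured, each by 1 probe set, out of 14497 genes with a single symbol. Ifnar2 and Tyk2 matched no probe set by symbol and were not analysed here. The arrays held poly(A) RNA from primary cultures of hippocampal neurons, prepared from rat embryos. In 2 cultures the neurons received Gld2 shRNA, a short hairpin RNA against the cytoplasmic poly(A) polymerase Gld2 (gene symbol Tent2), and in 2 they received scrambled shRNA. Both groups were transduced, and no untransduced culture is part of the comparison, which asks how the RNA of the knockdown cultures differs from that of the controls. Whether the response to transduction was alike in both groups was not tested. The RNA was captured on poly(U) Sepharose and released by heat. A higher amount of a transcript and better capture of its poly(A) tail therefore cannot be told apart in these values. The sources used here do not give the vector, the hairpin sequences, the strain, the age of the cultures or the time after transduction.

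Interferon beta is a secreted cytokine that cells make when they sense foreign RNA or DNA. It binds a receptor of the chains IFNAR1 and IFNAR2, whose cytoplasmic tails hold TYK2 and JAK1. The kinases phosphorylate STAT proteins, and a complex that holds STAT2 and IRF9 switches on antiviral genes through a promoter element called ISRE. Interferon gamma acts through IFNGR1 and IFNGR2 with JAK1 and JAK2, and its signal reaches genes through an element called GAS. SOCS1 and SOCS3 are made in response to cytokines and close a feedback loop. SOCS1 binds and inhibits the kinases at interferon receptors, and SOCS3 acts mostly on receptors that contain gp130, the product of Il6st. In the brain, neurons, astrocytes and microglia all carry the type I interferon receptor.

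The transcript targeted by the hairpin was lower. Tent2 had values of 9.50 and 9.35 in the Gld2 shRNA cultures, against 10.73 and 10.67 in the scrambled shRNA cultures, as log2 RMA values. The log2 difference, Gld2 shRNA minus scrambled shRNA in this and all later values, was -1.28 (limma with Benjamini-Hochberg adjustment over 14497 genes, adjusted p = 0.000754). Neuronal markers were bright in every culture, the lowest of 10 at a value of 11.9. Of 9 measured astrocyte markers, the lowest value was 9.08, and 5 had a difference above 0 and 4 below. The brightest of them, Gfap, was at 13.30 and 13.28 in the Gld2 shRNA cultures against 13.19 and 13.18 in the scrambled shRNA cultures. In such bulk RNA, fewer cells of a type and less RNA per cell cannot be told apart. Array medians ran from 8.41 to 8.48, and having 2 arrays a group limits the precision. Nothing in the labels says whether the cultures of a group were prepared separately, so the p-values cover only the difference among these cultures, and that may be technical. Gld2 shRNA culture 2 had a smaller SD over genes, 1.893, than the other cultures, at 1.945 to 1.963. Its dim genes lay higher and its genes of middle brightness lower, as the plot of deviation by brightness shows.

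**Figure D1:**
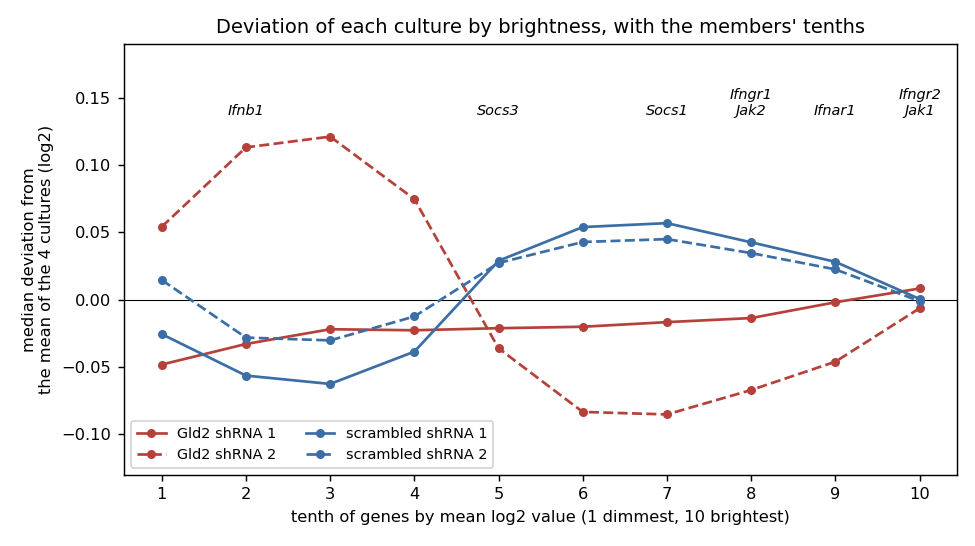
Median deviation of each culture from the mean of the 4 cultures (log2, vertical axis) in each of 10 equal classes of genes by mean value (horizontal axis, 1 dimmest), with Gld2 shRNA cultures in red and scrambled shRNA cultures in blue. Gld2 shRNA culture 2 deviated by 0.113 in the class that holds Ifnb1 and by -0.0852 in the class that holds Socs1.

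Of the 8 measured genes, 1 rose in the Gld2 shRNA cultures, the inhibitor Socs1, and 0 fell. Over all genes, 1.69% were higher and 2.41% lower at an adjusted p under 0.05, and the count rests on Socs1 alone. At an unadjusted p under 0.05, 3 of the 8 were higher (Socs1, Socs3 and Ifnb1) and 0 lower, against 9.24% and 16.2% of all genes. The Gld2 shRNA cultures lay above the scrambled shRNA cultures without overlap for 4 of the 8 (these 3 and Ifngr1) and below them for 0, against 24.0% and 34.5% of all genes. The median log2 difference was 0.10 over the 8 genes and -0.02 over all genes. The split of calls over all genes was 245 higher and 349 lower as reported, 558 and 1367 with each array centred on its median, and 218 and 94 with each array centred on the median of its named genes. In those settings 3 and 1 of the 8 genes were higher. Median centring moved the differences little but the p-values much, so the variance estimates or their degrees of freedom changed as well. Ifnb1 went from 0.30 to 0.27 while its adjusted p went from 0.159 to 0.0450 (limma). Tent2 went from -1.28 to -1.31 while its adjusted p went from 0.000754 to 1.91e-16 (limma).

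**Figure D2:**
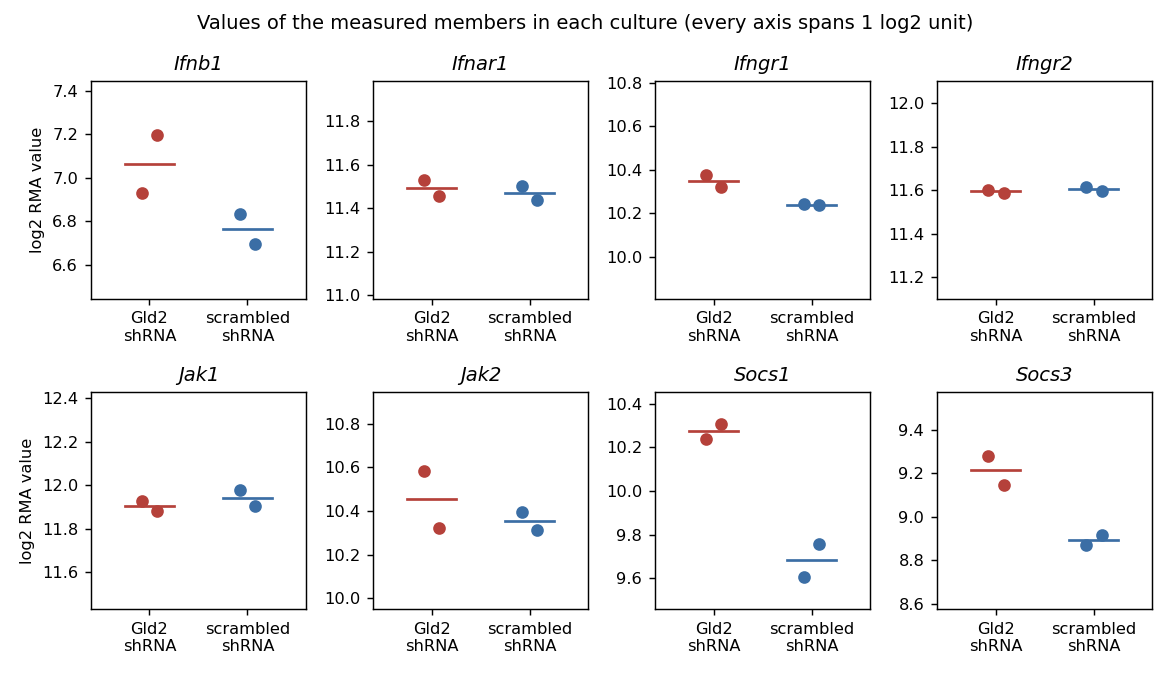
Log2 RMA values of the 8 measured genes, 1 point per culture, Gld2 shRNA cultures in red on the left and scrambled shRNA cultures in blue on the right, with a bar at the group mean. Socs1 shows the widest gap between the groups, with means of 10.27 in Gld2 shRNA and 9.68 in scrambled shRNA cultures, while Ifnar1, Ifngr2, Jak1 and Jak2 overlap.

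Ifnb1, the cytokine at the head of the pathway, was dim on all arrays. Ifnb1 (probe set 10877952) had values of 6.93 and 7.19 in the Gld2 shRNA cultures, against 6.83 and 6.69 in the scrambled shRNA cultures. Both knockdown cultures lay above both controls, but Gld2 shRNA culture 1 was nearer to each control than to culture 2. The mean was 7.06 ± 0.188 with Gld2 shRNA and 6.76 ± 0.0989 with scrambled shRNA (SD, n = 2 each), and the log2 difference was 0.30 (standard error 0.105, 95% interval from 0.04 to 0.55). It did not pass the test over all genes (adjusted p = 0.159, limma). Only 14.0% of genes had a lower mean value, and in its class of 1450 genes by brightness, with means from 6.52 to 7.38, 72.1% had a difference above 0 and the median was 0.08. Brightness ranks signal only, since the levels of different probe sets are not comparable as amounts of RNA. Cyclic loess, which removes such trends with brightness, gave Ifnb1 a difference of 0.22 (adjusted p = 0.155, limma). Without Gld2 shRNA culture 1 the difference was 0.43 (adjusted p = 0.0312), and without Gld2 shRNA culture 2 it was 0.16 (adjusted p = 0.376), both by limma.

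The other measured interferon genes were likewise without a call in the reported fit. Of 4 such genes, 0 passed, with 1 higher and 1 lower at an unadjusted p under 0.05. Ifna4, an interferon alpha, had values of 8.02 and 8.18 in the Gld2 shRNA cultures, against 7.81 and 7.91 in the scrambled shRNA cultures, a difference of 0.24 (adjusted p = 0.140, limma). Ifng, the ligand of the receptor that Ifngr1 and Ifngr2 encode, had values of 7.01 and 7.29 in the Gld2 shRNA cultures. In the scrambled shRNA cultures it had 7.40 and 7.57, a difference of -0.33 (adjusted p = 0.146, limma). In the alternatives that kept all 4 cultures, Ifng did pass as lower with cyclic loess and with median centring. Calls as higher were reached in this list only without Gld2 shRNA culture 1, a fit that leaves 1 culture in its group. Over the alternatives the difference of Ifng ran from -0.469 to -0.190, and that of Ifna4 from 0.162 to 0.325. The Ifna genes are a family of close copies, so their probe sets may take up signal from each other. Among 18 measured genes of the steps that lead to Ifnb1 transcription, 4 rose, 0 fell and 14 did not pass, with 3 lower at an unadjusted p under 0.05 and a list median of 0.07. The 4 were Irf7, the transcription factor that amplifies interferon gene transcription (2.80), Dhx58 and Ifih1, which encode RNA sensors or regulators of sensing (2.12 and 2.07), and Irf1, another factor that acts on the promoter (1.30). All 4 are themselves known to be induced by interferon.

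The receptor chains showed small differences. Ifnar1 (probe set 10750200), a chain of the interferon beta receptor, had values of 11.53 and 11.46 in the Gld2 shRNA cultures, against 11.50 and 11.44 in the scrambled shRNA cultures. The groups overlapped, and the log2 difference was 0.03 with a 95% interval from -0.13 to 0.19 (adjusted p = 0.833, limma). Ifngr2 (probe set 10750211), the signalling chain of the interferon gamma receptor, had values of 11.60 and 11.59 in the Gld2 shRNA cultures, against 11.62 and 11.59 in the scrambled shRNA cultures. These also overlapped, and the interval ran from -0.16 to 0.13 around -0.01 (adjusted p = 0.927, limma). Ifngr1 (probe set 10701924), the ligand-binding chain, had values of 10.38 and 10.32 in the Gld2 shRNA cultures, against 10.24 and 10.24 in the scrambled shRNA cultures. Both knockdown cultures lay above both controls, by a small difference of 0.11 with an interval from -0.04 to 0.26 that did not pass the test (adjusted p = 0.315, limma). For the 3 chains the intervals of the reported fit leave room for changes of up to about 0.26 on the log2 scale in the knockdown cultures. The size depends on the scaling. Ifngr1 was at 0.21 with cyclic loess (adjusted p = 0.0798, limma) and at 0.08 with median centring (adjusted p = 0.6075, limma).

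Ifnar1 and Ifngr2 lie side by side on rat chromosome 11. In the RefSeq annotation of assembly GRCr8 the order of protein-coding genes there is Ifnar2, Il10rb, Ifnar1 and Ifngr2, between Olig1 and Tmem50b. Il10rb encodes the chain shared by the receptors of interferon lambda and of interleukin 10. It had values of 10.21 and 10.11 in the Gld2 shRNA cultures, against 9.75 and 9.65 in the scrambled shRNA cultures, without overlap. Il10rb rose by 0.46 on the log2 scale, 1.37-fold (standard error 0.0714, adjusted p = 0.0323, limma), while its neighbours Ifnar1 and Ifngr2 had the values given above, and the flanking Olig1 and Tmem50b were at 0.02 and -0.02. Whether Il10rb differed from its neighbours was not tested. The rise lost its call without scrambled shRNA culture 1 or 2 (adjusted p = 0.212 and 0.259, limma), with all probe sets tested (0.0794) and with no moderation (0.281).

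Among 27 measured genes of other receptors that signal through JAKs, Il10rb was the 1 that rose, 1 fell and 25 did not pass, with 7 higher and 3 lower at an unadjusted p under 0.05 and a list median of 0.08. The gene that fell was Il6r, the interleukin 6 receptor, at 9.18 and 8.88 in the Gld2 shRNA cultures against 9.63 and 9.57 in the scrambled shRNA cultures. Its difference was -0.57 (adjusted p = 0.0464, limma), and the call was lost without Gld2 shRNA culture 2 (-0.42, adjusted p = 0.0633) and without scrambled shRNA culture 1 or 2 (adjusted p = 0.322 and 0.259), all by limma. It was also lost with centring on the named genes (adjusted p = 0.0778), with all probe sets tested (0.0974) and with no moderation (0.337), by limma.

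The kinases did not pass the test. Jak1 (probe set 10878286), which serves both receptors, had values of 11.93 and 11.88 in the Gld2 shRNA cultures, against 11.98 and 11.91 in the scrambled shRNA cultures. The values of the groups interleave, and the log2 difference was -0.04 with a 95% interval from -0.19 to 0.12 (adjusted p = 0.737, limma). Jak2 (probe set 10714667), the partner of Jak1 at the interferon gamma receptor, had values of 10.58 and 10.32 in the Gld2 shRNA cultures, against 10.40 and 10.31 in the scrambled shRNA cultures. Its difference of 0.10, with an interval from -0.14 to 0.34 (adjusted p = 0.559, limma), came from 1 high array, Gld2 shRNA culture 1, and without that culture it was -0.03. The spread of Jak2 between the knockdown cultures, an SD of 0.184, was wider than its difference.

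Downstream of the kinases the picture was uneven. Of 8 other measured genes of this tier, 2 rose, 0 fell and 6 did not pass, with 5 higher at an unadjusted p under 0.05 and a list median of 0.20. Stat2 had values of 11.71 and 11.61 in the Gld2 shRNA cultures against 10.15 and 10.31 in the scrambled shRNA cultures, a rise of 1.43, or 2.69-fold (adjusted p = 0.000592, limma). Irf9, its partner in the ISRE-binding complex, had values of 11.11 and 11.02 in the Gld2 shRNA cultures against 9.65 and 9.69 in the scrambled shRNA cultures, a rise of 1.40, or 2.63-fold (adjusted p = 0.000278, limma). Stat3, the main STAT of gp130 receptors, was at 0.25 without a call (adjusted p = 0.0792, limma). Jak3, the kinase of lymphocyte cytokine receptors, was at 0.01.

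**Figure D3:**
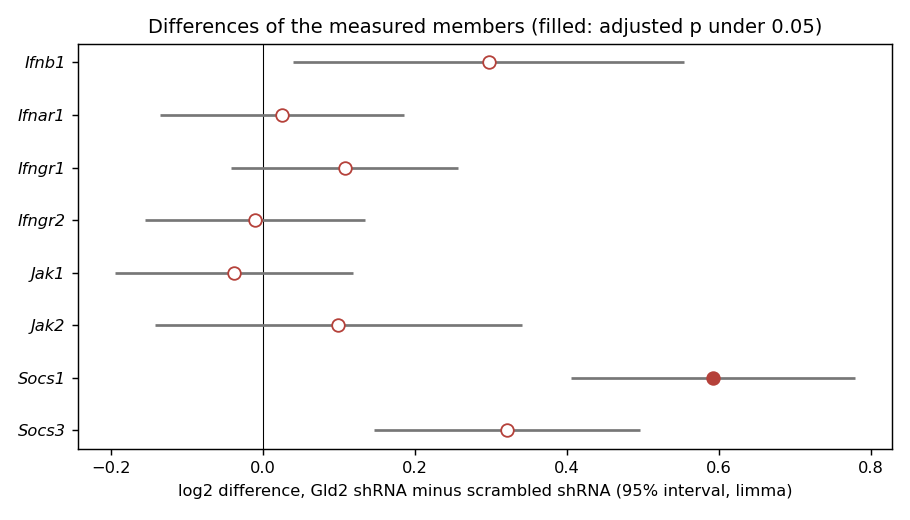
Log2 difference, Gld2 shRNA minus scrambled shRNA, of each measured gene (horizontal axis), with its 95% interval from limma and a filled point where the adjusted p was under 0.05. The interval of Socs1 runs from 0.41 to 0.78, those of Socs3 and Ifnb1 lie above 0 without a call, and the other 5 include 0.

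The inhibitors held the clearest change. Socs1 (probe set 10731512) had values of 10.24 and 10.31 in the Gld2 shRNA cultures, against 9.60 and 9.76 in the scrambled shRNA cultures. Both knockdown cultures lay well above both controls. The mean was 10.27 ± 0.0491 with Gld2 shRNA and 9.68 ± 0.109 with scrambled shRNA (SD, n = 2 each), and the log2 difference was 0.59, or 1.51-fold (standard error 0.0764, 95% interval from 0.41 to 0.78). The adjusted p was 0.0181 by limma, at rank 200 of the genes by p. The rise goes against the trend of genes of its brightness, of which 22.0% had a difference above 0 and whose median was -0.10, and it was 0.70 after cyclic loess (adjusted p = 0.00807, limma). The difference kept its sign in all 14 alternatives, from 0.52 to 0.70, and passed the threshold in 9. It missed the threshold without Gld2 shRNA culture 2 (adjusted p = 0.0515), without scrambled shRNA culture 1 (0.193) and without scrambled shRNA culture 2 (0.0985), and also with all probe sets tested (0.0549) and with no moderation of the variances (0.278), all by limma.

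Socs3 (probe set 10749372) had values of 9.28 and 9.15 in the Gld2 shRNA cultures, against 8.87 and 8.92 in the scrambled shRNA cultures. The groups did not overlap. The mean was 9.21 ± 0.0940 with Gld2 shRNA and 8.89 ± 0.0323 with scrambled shRNA (SD, n = 2 each), and the log2 difference was 0.32, or 1.25-fold (standard error 0.0714, 95% interval from 0.15 to 0.50). It did not pass the test (adjusted p = 0.0683, limma). In 4 of 13 alternatives it did pass, among them cyclic loess (0.38, adjusted p = 0.0300, limma) and a prior variance fitted to the level (adjusted p = 0.0171, limma). Whether Socs1 and Socs3 differed in response was not tested.

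The other brakes on the pathway were read in the same fit. Of 16 other measured inhibitors, 1 rose, 0 fell and 15 did not pass, against 1.69% higher and 2.41% lower over all genes. At an unadjusted p under 0.05, 1 was higher and 1 lower. The list median was -0.06. The gene that rose was Usp18, which removes ISG15 from proteins and blocks the interferon receptor at the chain IFNAR2. Usp18 had values of 11.95 and 11.87 in the Gld2 shRNA cultures against 8.32 and 8.66 in the scrambled shRNA cultures, a rise of 3.42 or 10.7-fold (adjusted p = 7.73e-05, limma). The other SOCS genes measured had no call. Socs2 was at -0.16, Socs4 at -0.06, Socs5 at -0.17, Socs6 at -0.05 and Cish at -0.01. Socs5 and Socs2 lay in brightness classes 7 and 9, where the medians over all genes were -0.10 and -0.05.

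The promoter sequences of Socs1, Socs3 and Ifnb1 are shown because these are the 3 genes with the smallest p, and the elements of the pathway can be looked for in them. Each sequence is the 250 bases before the RefSeq transcript start on assembly GRCr8, written 5′ to 3′ on the strand of the gene, with capitals marking matches to GAS (TTCNNNGAA) or to the ISRE core (GAAANNGAAA) on either strand. Socs1 lies at chr10:5389324-5389573 on the plus strand, Socs3 at chr10:103694769-103695018 on the minus strand and Ifnb1 at chr5:108067488-108067737 on the minus strand.
Socs1: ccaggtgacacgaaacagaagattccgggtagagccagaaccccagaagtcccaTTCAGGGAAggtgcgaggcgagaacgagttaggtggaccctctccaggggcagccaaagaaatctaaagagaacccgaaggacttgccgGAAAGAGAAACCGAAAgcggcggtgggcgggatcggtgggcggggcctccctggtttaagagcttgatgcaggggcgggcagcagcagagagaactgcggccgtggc
Socs3: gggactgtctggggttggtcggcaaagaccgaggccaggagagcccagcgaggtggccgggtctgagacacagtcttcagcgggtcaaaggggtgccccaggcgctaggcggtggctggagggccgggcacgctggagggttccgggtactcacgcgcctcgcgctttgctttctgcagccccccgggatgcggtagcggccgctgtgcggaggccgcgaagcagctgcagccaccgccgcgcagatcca
Ifnb1: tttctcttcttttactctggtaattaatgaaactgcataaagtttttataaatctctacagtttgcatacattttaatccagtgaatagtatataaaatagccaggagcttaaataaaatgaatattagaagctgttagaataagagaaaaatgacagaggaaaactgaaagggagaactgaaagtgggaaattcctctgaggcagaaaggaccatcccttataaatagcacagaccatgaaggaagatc

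The search window was these 250 bases and 50 bases after the start, and RefSeq promoters matched 8 of the 10 genes by symbol, Jak1 and Tyk2 being without an entry. Socs1 held the ISRE core at positions -107 to -98 and again, overlapping it, at -101 to -92, counted from the start, and GAS at -196 to -188. It was the 1 gene of the 8 with the ISRE core, which 3.92% of all 33469 promoters hold. GAS was in Socs1 and Ifnar2, 2 of the 8, against 8.87% of all promoters. The promoters of Socs3 and Ifnb1 hold neither run of letters in this window. Only these exact patterns were searched. Tetramers at another spacing, as in the run gaaaactgaaa of Ifnb1, other elements and bases outside the window were not looked for. Lack of a match therefore does not show that these genes lack elements of the pathway. Among the interferon output genes described next, 9 of 13 promoters (69.2%) held the ISRE core. A match is a description of letters and no evidence of binding.

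Over the 4 cultures, the genes whose values moved most like those of Socs1 were Slfn2, Sectm1b and Kpna2. Likeness was the Euclidean distance between values centred on each gene's mean, over 2942 genes with a range at least 50% of that of Socs1, and the distances were 0.0603, 0.0655 and 0.0851. Slfn2, a member of the Schlafen family, had values of 8.34 and 8.33 in the Gld2 shRNA cultures, against 7.68 and 7.80 in the scrambled shRNA cultures. Sectm1b had values of 8.60 and 8.64 in the Gld2 shRNA cultures, against 8.02 and 8.14 in the scrambled shRNA cultures. Kpna2, an importin alpha of nuclear import, had values of 12.07 and 12.23 in the Gld2 shRNA cultures, against 11.54 and 11.67 in the scrambled shRNA cultures. With 4 cultures, many genes can share such a pattern.

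Larger differences were measured in genes that the pathway controls. All 16 measured output genes of type I interferon rose, with a median of 3.40 and a range from 0.52 (Bst2) to 4.16 (Ifit3). Those with the smallest p included the antiviral GTPase genes Mx1 (3.71) and Mx2 (3.47), the RNA-binding Ifit2 (3.37) and Irf7. The oligoadenylate synthetase-like genes Oasl (4.05) and Oasl2 (3.64) were also among them. Mx1 and Mx2, and Oasl and Oasl2, are related pairs whose probe sets may share signal. The output list was chosen with its rise in these data known, so it is no independent evidence. Of 12 genes known for induction by interferon gamma, 5 rose, 0 fell and 7 did not pass, with a median of 0.22. At an unadjusted p under 0.05, 7 of the 12 were higher and 0 lower. Those that rose were the GTPase genes Gbp5 (2.81) and Gbp2 (2.76), Irf1 (1.30), the adhesion molecule Icam1 (0.60) and the chemokine Cxcl9 (0.54), and type I interferon can induce such genes too. Among those that did not pass were Ciita, the master regulator of MHC class II genes (0.16), and Cd74 of the class II pathway (0.23). The class II genes RT1-Bb (0.21), RT1-Da (0.13) and RT1-Ba (-0.02) did not pass either. Cd74 and RT1-Bb were among the genes higher at the unadjusted p. Ciita, Cd74 and these class II genes were chosen after their values were seen. Without scrambled shRNA culture 1 or 2 the count was 3.

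Of 14 genes responsive to STAT3, the factor that SOCS3 restrains, 4 rose, 0 fell and 10 did not pass, with a median of 0.29 and with 10 higher and 2 lower at an unadjusted p under 0.05. Lcn2 (lipocalin, 1.91), Serpina3n (a serine protease inhibitor, 1.73), the metalloprotease inhibitor Timp1 (0.79) and the kinase Pim1 (0.34) were those that rose. The count ran from 2 without scrambled shRNA culture 1 through 7 without Gld2 shRNA culture 1 to 11 with a prior variance fitted to the level. With a replicate block taken from the last digit of each title, the count was again 4, although Pim1 missed the threshold (adjusted p = 0.0516, limma), so another gene of the list passed there.

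**Figure D4:**
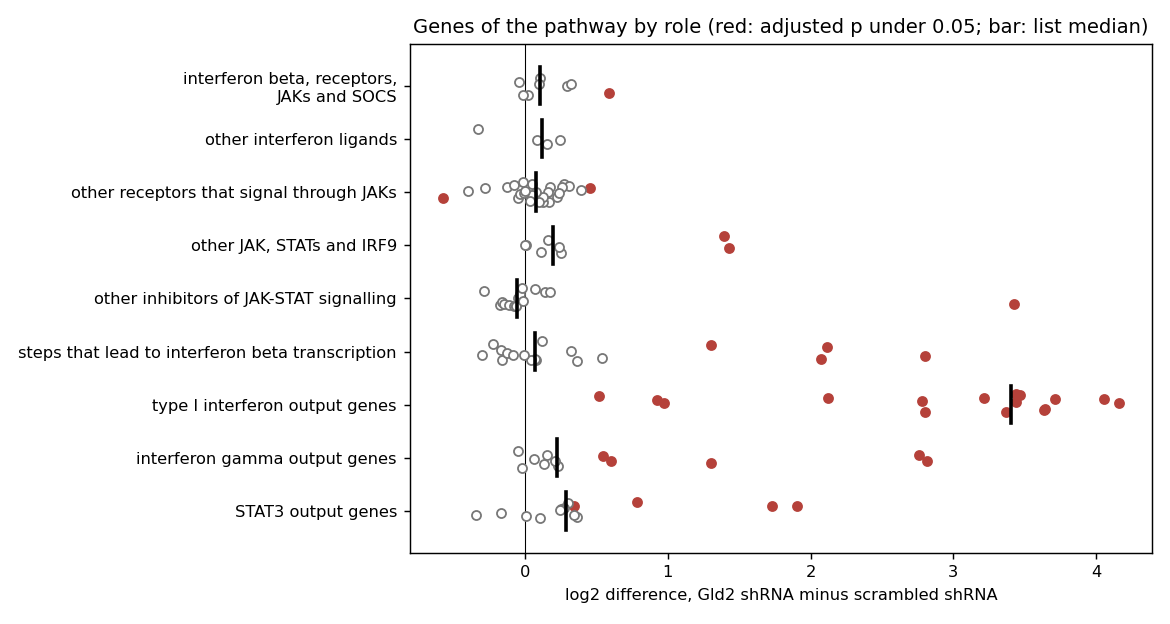
Log2 difference, Gld2 shRNA minus scrambled shRNA, of each measured gene (horizontal axis) by role in the pathway, 1 point per gene, red where the adjusted p was under 0.05, with a bar at the list median. The medians are 0.10 for interferon beta, receptors, JAKs and SOCS and 3.40 for type I interferon output genes.

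Markers of the cell types such cultures can hold were read in the same fit. Of 10 microglia markers, 0 passed, with 2 higher at an unadjusted p under 0.05, a median of 0.13 and 6 without overlap above the controls, against 24.0% of all genes. Most of these markers were dim, in the brightness classes 2 to 4, where the medians over all genes were 0.05 to 0.10 and 60.6% to 76.3% of genes had a difference above 0. Their summed linear signal was 2356 and 2501 in the Gld2 shRNA cultures, against 2198 and 2280 in the scrambled shRNA cultures. Of 9 astrocyte markers, 1 fell, the gap junction gene Gja1 (-0.39), and 0 rose, with 2 lower and 0 higher at an unadjusted p under 0.05. Their summed signals were 45421 and 43837 in the Gld2 shRNA cultures against 44150 and 44832 in the scrambled shRNA cultures. Of 10 neuron markers, 0 passed, with 2 lower at an unadjusted p under 0.05, and the sums were 72710 and 72823 in the Gld2 shRNA cultures against 75125 and 75093 in the scrambled shRNA cultures. Endothelial and dividing cell markers had 0 calls of 9 and 8, with 3 and 1 higher and 0 and 1 lower at an unadjusted p under 0.05. Endothelial sums were 1713 and 1935 in the Gld2 shRNA cultures against 1680 and 1704 in the scrambled shRNA cultures, and those of dividing cells 2634 and 2498 in the Gld2 shRNA cultures against 2628 and 2500 in the scrambled shRNA cultures. Among 8 oligodendrocyte lineage markers 1 rose, the myelin enzyme gene Cnp (0.54), and 0 fell. At an unadjusted p under 0.05, 1 was higher and 1 lower, the lower one Mbp, myelin basic protein, at -0.29 without overlap (adjusted p = 0.0798, limma). Their sums were 9187 and 8783 in the Gld2 shRNA cultures against 8315 and 8131 in the scrambled shRNA cultures. Among 10 fibroblast and mural cell markers 1 rose, the actin-binding gene Tagln (0.37), and 0 fell. At an unadjusted p under 0.05, 2 were higher and 1 lower, Pdgfrb, a pericyte receptor, at -0.34 without overlap (adjusted p = 0.0519, limma). The sums of these markers were 10831 and 10349 in the Gld2 shRNA cultures against 9674 and 9842 in the scrambled shRNA cultures. Without overlap above the controls were 0 of the neuron, 4 of the astrocyte, 4 of the oligodendrocyte lineage, 4 of the endothelial, 5 of the fibroblast and mural and 2 of the dividing cell markers, and the list medians were -0.03, 0.05, 0.08, 0.08, 0.08 and -0.02 in that order. Below the controls without overlap were Gad2, Syt1, Map2 and Tubb3 of the neuron markers and Gja1, Fgfr3 and Slc1a2 of the astrocyte markers. In the other marker lists, Mbp, Kdr, Pdgfrb and Ccnb1 lay below in this way. Over all genes the share below was 34.5%. Mbp and Pdgfrb were chosen after their values were seen. RMA values have no zero, so absence of a marker cannot be read from them. The part of these cell types in the rise of Socs1 and in the values of Socs3 and Ifnb1 was not tested.

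**Figure D5:**
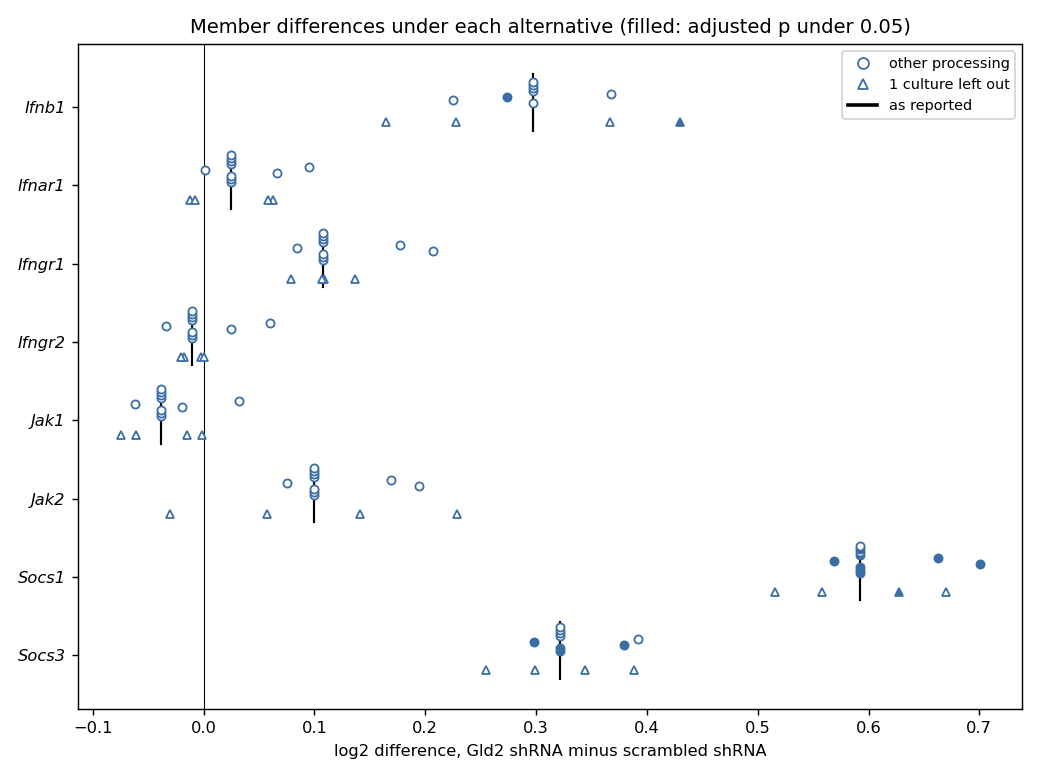
Log2 differences, Gld2 shRNA minus scrambled shRNA (horizontal axis), of the 8 measured genes as reported (black bar), under other processing (circles) and with 1 culture left out (triangles), filled where the adjusted p was under 0.05. Socs1 stays between 0.52 and 0.70, while Ifnar1, Ifngr2, Jak1 and Jak2 fall on both sides of 0.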

How the data were processed

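Values were deposited as a series matrix of log2 values. Per the submitters' processing notes, the authors made them with RMA and the affy package, which correct background, give arrays a common distribution and summarise each probe set. The sources used here name no version or setting, and no batch or scan date was used. The table held 28826 probe sets. Of these, 15209 had 1 gene symbol in the platform annotation, 306 several and 13311 none, and 15178 gene identifiers matched RefSeq (GRCr8) with 0 symbols changed.

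The brightest probe set per gene gave 14497 genes, fitted in R 4.3.3 with lmFit and eBayes of limma 3.58.1. Tests were two-sided, p-values were adjusted over all genes by Benjamini-Hochberg, and the threshold was 0.05. In the reported fit there were 2 residual degrees of freedom, and moderation added 3.96. The number added was not recorded for the alternatives. An exact permutation test of 2 cultures against 2 cannot go below p = 0.333 and was not used. The fit was run on simulated data drawn from its own variance model with independent errors. That run cannot show how well the p-values hold for these arrays. Members, lists and the rule for named genes were chosen with earlier results of these data known. Named were the measured members, Tent2, up to 6 genes past the threshold per list (otherwise the 2 with the smallest p), inhibitors, STATs, Irf9 and Jak3, and the 3 genes most like a member past the threshold. Alternatives were another prior variance, filters on dim genes, cyclic loess, centring, other probe set rules, all probe sets, a replicate block, no moderation and each culture left out. Centring on the named genes was added after the data were seen. Leaving out a culture leaves 1 in its group, which is assumed to vary like the other group.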

Additional observations from a re-analysis of the deposited data

How the results depend on the processing

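Over the 8 measured genes, the number higher was 2 with a prior variance fitted to the level, with a filter at the 25th percentile (which leaves 7 of the 8) and with cyclic loess, 3 with median centring, and 0 with all probe sets or no moderation. It ran from 0 to 2 without 1 culture. The number lower was 0 throughout. Socs1 had an adjusted p of 0.0549 with all probe sets and 0.278 with no moderation, both at a difference of 0.59, and ran from 0.52 to 0.67 without 1 culture. Socs3 became called at 0.32 with the fitted prior and with the 25th percentile filter, at 0.38 with cyclic loess and at 0.30 with median centring. Ifnb1 became called with median centring (0.27) and ran from 0.16 to 0.43 without 1 culture. With median centring, Socs3 and Ifnb1 were called at smaller differences than those reported, in a fit whose variance part had changed.

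Differences near 0 changed sign without a call. Ifngr2 was at 0.0247 with cyclic loess and 0.0598 with centring on the named genes, and Jak1 at 0.0318 with that centring. Without 1 culture, Ifnar1 ran from -0.0120 to 0.0622, Ifngr2 from -0.0208 to 0.000548 and Jak2 from -0.0307 to 0.229. The cause of these changes was not tested.

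Over all genes, higher calls numbered 621 with the fitted prior, 370 with cyclic loess, 558 with median centring and 1 with no moderation. Lower calls numbered 1611 with the fitted prior, 1287 and 949 with genes under the median or the 25th percentile left out, 1367 with median centring, 94 with centring on the named genes, 116 with all probe sets and 0 with no moderation. Without 1 culture they ran from 82 to 1283 higher and from 3 to 1406 lower. Over the alternatives with moderation, the output list of type I interferon had 12 to 16 calls, the steps towards Ifnb1 4 to 7 higher, other receptors 0 to 5 higher and 0 to 3 lower, and STAT3 output genes 2 to 11 higher. With no moderation the members and the 8 pathway lists had 0 calls, and the marker lists were not run under the alternatives.

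Same-numbered cultures deviated with a correlation of 0.143 over genes, and no label states a pairing. The replicate block gave 233 higher and 332 lower genes and changed no call among the 8 genes. No detection calls were used here, so the signal of the dim Ifnb1 over background is unknown.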
